A study of Sus scrofa with 24 samples.

Results

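The semaphorin, ephrin, slit and netrin families and their receptors were followed in the utero-tubal junction (UTJ) of sows, the narrow passage between uterus and oviduct where spermatozoa are held before ovulation. Members were all genes given a single symbol in the annotation of the array that matched the names of these families, and 55 such genes were found among 12365 genes with a single symbol. They comprised 15 semaphorins, 7 plexins and neuropilins, 8 ephrins, 10 Eph receptors, 5 slits and robos, and 10 netrins and netrin receptors. Of the 55 genes 4 had more than 1 probe set, and the probe set with the highest mean over all arrays then stood for the gene. Expression was measured in UTJ tissue of Swedish Landrace sows in oestrus on 24 Affymetrix arrays (Porcine Gene 1.0 ST), 8 per group. Mated arrays were labelled as tissue from sows mated with boars, SP-infused arrays as tissue after infusion of 50 ml of sperm-free seminal plasma (SP), and control arrays as tissue after infusion of 50 ml of the sperm extender BTS. A part of the study's methods instead describes control females without mating or insemination. Tissue was taken within 24 h of treatment. The study's methods name 4 sows in each group, both of whose UTJs were sampled, while the labels do not tie arrays to sows. Arrays were therefore treated as independent, and the p-values given are too small.

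Guidance genes were named for their part in steering growing axons, yet they are expressed in many adult tissues. Semaphorins signal through plexins, and most of the secreted class need neuropilins as co-receptors. Ephrins are held at the cell surface and bind Eph receptor tyrosine kinases on neighbouring cells, with signals running into both cells. Slits bind robos, and netrins bind DCC, which mediates attraction, or UNC5 receptors, which mediate repulsion. In epithelia, vessels and smooth muscle these systems are known for their effects on cell contact, cell sorting, vessel growth and innervation.

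Values were log2 intensities, so that a difference of 1 is a doubling. The means over 24 arrays of 8 members (EFNA2, EPHA8, NTN3, PLXNB3, ROBO3, SEMA6C, SLIT1 and UNC5D) lay below 5. The median of all probe sets on an array ranged between 5.75 and 5.99, and control replicate 1 had the lowest SD (1.91) of the arrays. The array most alike to a given array was of the same group for 10 of 24 arrays. Markers fitting the labelled tissue were measured on all arrays, with OVGP1 (the oviductal glycoprotein of secretory cells) at 8.81 ± 1.92 in mated arrays, 8.61 ± 2.39 in SP-infused arrays and 7.23 ± 2.36 in controls, and FOXJ1 (the regulator of motile cilia) at 7.28 ± 0.52 in mated arrays, 7.57 ± 0.30 in SP-infused arrays and 7.62 ± 0.44 in controls (SD, n = 8 each). Of the list used below for secretory epithelium 4 genes were measured, namely OVGP1, EPCAM, KRT8 and KRT18. EPCAM, KRT8 and KRT18 are not particular to secretory cells. OVGP1 had the widest SD of the 4 and so weighs most in the spread of their mean. It was the only one with a higher mean in mated than in control arrays, by 1.57 ± 1.03 (SE). The difference was -0.41 ± 0.19 for EPCAM, -0.26 ± 0.32 for KRT8 and -0.27 ± 0.30 for KRT18. The arrays are of whole tissue, where fewer cells of a type and less RNA per cell cannot be told apart.

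No guidance gene passed an adjusted p under 0.05 in any comparison (limma, Benjamini-Hochberg over 27558 probe sets), and no probe set of the array did (0% in each comparison). At an unadjusted p under 0.05, 10 of 55 members differed between mated and control arrays, which is 18.2% of members against 11.4% of all probe sets. Of these 10 genes 6 were higher in mated arrays, or 10.9% of members against a background of 2.88%, and 4 were lower, or 7.27% against 8.52%. Between SP-infused and control arrays 3 members differed (5.45%, background 5.15%), all of them lower (background 3.76% lower and 1.4% higher). Between mated and SP-infused arrays 4 members differed (7.27%, background 3.34%), with 3 higher and 1 lower in mated arrays (background 1.52% higher and 1.82% lower). Among the 12365 genes with a single symbol 10.2%, 4.54% and 3.31% differed in these comparisons. The groups overlapped for every member in each comparison, where 0.0581%, 0.0218% and 0.0181% of all probe sets had groups that did not overlap. Directions here and below follow the labels, and for several of these genes they are not those of the study's own gene lists. The reason could not be settled from the files, and every signed difference rests on the labels being right. Both comparisons with control share the same control arrays. A log2 difference above 0 was found in 58.2% of members for mated minus control (background 38.9%), 43.6% for SP-infused minus control (background 39.2%) and 60% for mated minus SP-infused arrays (background 46.3%). The median difference over the members was 0.03 for mated minus control arrays, -0.02 for SP-infused minus control and 0.05 for mated minus SP-infused, while the medians over all probe sets were -0.05, -0.04 and -0.01. These backgrounds were not matched to the members for signal level. On each array 30.7% to 37.1% of probe sets lay below 5. For mated minus control the median was -0.13 over the 8 members with a mean below 5 and 0.06 over the 47 others.

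**Figure D1:**
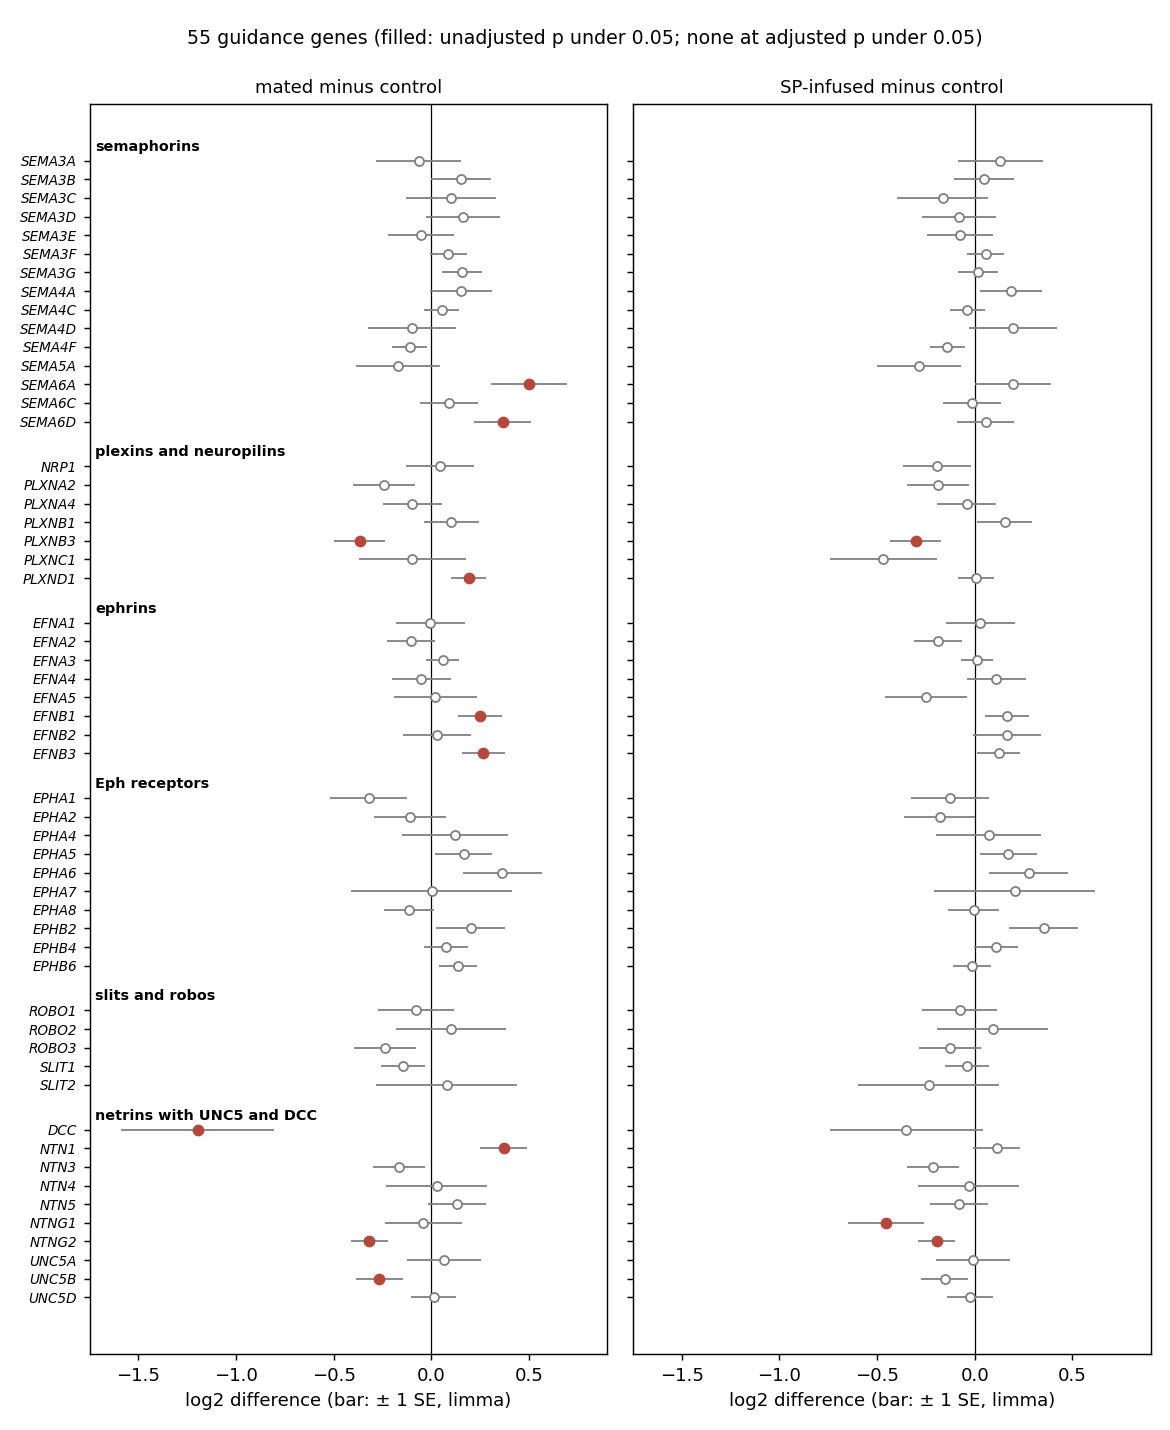
Log2 difference of each of the 55 guidance genes, by family, in mated minus control arrays (left) and SP-infused minus control arrays (right), with bars of 1 SE from limma. Filled points mark the 10 genes on the left and the 3 on the right at an unadjusted p under 0.05, and DCC lies farthest from 0 with -1.20 on the left.

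Among the semaphorins, SEMA6A and SEMA6D were the members with the lowest p in mated against control arrays. Both belong to the class of membrane-bound semaphorins that bind class A plexins. SEMA6A (probe set 15266425) lay between 7.32 and 8.68 with a median of 8.26 in mated arrays, between 7.28 and 8.18 with a median of 7.88 in SP-infused arrays, and between 6.95 and 8.29 with a median of 7.66 in control arrays. Thus 7 of 8 mated arrays were above the control median and 4 above every control array, while the groups overlapped. The difference between mated and control arrays was 0.50 ± 0.20 (SE), a 1.41-fold higher value (limma, adjusted p = 0.369). An exact permutation test of SEMA6A alone, two-sided, gave p = 0.0519 for mated against control, p = 0.344 for SP-infused against control and p = 0.118 for mated against SP-infused arrays. SEMA6A was 0.19 ± 0.20 above control in SP-infused arrays (adjusted p = 0.901).

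SEMA6D (probe set 15194748) lay between 7.68 and 8.31 with a median of 8.14 in mated arrays, between 7.38 and 8.14 with a median of 7.80 in SP-infused arrays, and between 7.09 and 8.11 with a median of 7.77 in control arrays. Of 8 mated arrays 5 exceeded every control array, and the other 3 lay inside the control range. SEMA6D was 0.36 ± 0.15 higher in mated than in control arrays (limma, adjusted p = 0.378) and 0.31 ± 0.15 higher in mated than in SP-infused arrays (adjusted p = 0.998), with 0.06 ± 0.15 between SP-infused and control arrays (adjusted p = 0.959). The remaining 13 semaphorins did not reach an unadjusted p of 0.05 in any comparison. In SP-infused minus control arrays, SEMA5A, a transmembrane semaphorin with thrombospondin repeats, gave -0.28 ± 0.22 (-0.43 to -0.13 when 1 array was left out) and SEMA4F, a membrane-bound class 4 semaphorin, -0.14 ± 0.09 (both adjusted p = 0.891).

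Of the semaphorin receptors, PLXNB3 was lower and PLXND1 higher in mated arrays at an unadjusted p under 0.05. PLXNB3, a receptor for SEMA5A, lay between 4.32 and 5.13 with a median of 4.87 in mated arrays, between 4.45 and 5.36 with a median of 4.87 in SP-infused arrays, and between 4.69 and 5.56 with a median of 5.19 in control arrays. All 8 mated arrays and 7 of 8 SP-infused arrays were below the control median, with a mean over all arrays below 5. The difference from control was -0.37 ± 0.13 in mated arrays (limma, adjusted p = 0.349) and -0.30 ± 0.13 in SP-infused arrays (adjusted p = 0.891; exact permutation test, two-sided p = 0.0452). Another probe set of PLXNB3 gave -0.24 and -0.25 in the same comparisons.

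PLXND1, the plexin best known from developing vessels, lay between 7.23 and 7.80 with a median of 7.39 in mated arrays, between 6.94 and 7.47 with a median of 7.25 in SP-infused arrays, and between 7.06 and 7.48 with a median of 7.18 in control arrays. All 8 mated arrays were above the control median and 2 above every control array. PLXND1 was 0.19 ± 0.09 higher in mated than in control arrays (limma, adjusted p = 0.426) and differed by 0.01 ± 0.09 between SP-infused and control arrays. Of 9 measured endothelial markers 3 were higher in mated than in control arrays at an unadjusted p under 0.05 (PECAM1 by 0.41, TEK by 0.42 and CLDN5 by 0.33) and 1 was lower (ROBO4, -0.22). The mean of the 9 markers ranged from 6.93 to 7.34 in mated, 6.89 to 7.34 in SP-infused and 6.74 to 7.33 in control arrays, and the lowest mean of a marker over all arrays was 5.71 (CLDN5). The part of endothelial content in the PLXND1 value was not tested. PLXNC1, a receptor for the class 7 semaphorin, gave -0.47 ± 0.28 in SP-infused minus control arrays (adjusted p = 0.891), and its control arrays spread over 6.12 to 8.24.

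Among the ephrins, EFNB1 and EFNB3, membrane-spanning ligands of EphB receptors, were higher in mated arrays at an unadjusted p under 0.05. EFNB1 lay between 6.10 and 7.13 with a median of 6.61 in mated arrays, between 6.27 and 6.87 with a median of 6.46 in SP-infused arrays, and between 6.20 and 6.45 with a median of 6.35 in control arrays. In mated arrays 6 of 8 values were above every control array and 1 was below every control array, so that the spread was wider in mated (SD 0.29) and SP-infused (SD 0.23) than in control arrays (SD 0.09). The difference between mated and control arrays was 0.25 ± 0.11 (limma, adjusted p = 0.408), and that between SP-infused and control arrays was 0.17 ± 0.11 (adjusted p = 0.891). EFNB3 lay between 5.18 and 5.85 with a median of 5.46 in mated arrays, between 5.16 and 5.62 with a median of 5.34 in SP-infused arrays, and between 4.90 and 5.61 with a median of 5.30 in control arrays. EFNB3 was thus 0.27 ± 0.11 higher in mated than in control arrays (adjusted p = 0.385), with 3 mated arrays above every control array. The 5 ephrin-A genes, whose products are tethered by a lipid anchor, and EFNB2 did not reach an unadjusted p of 0.05, with EFNA2 at -0.19 ± 0.12 in SP-infused minus control arrays (adjusted p = 0.891).

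None of the 10 Eph receptors reached an unadjusted p of 0.05 in any comparison. The lowest p-values belonged to EPHA6 (0.36 ± 0.20) and EPHA1 (-0.32 ± 0.20) in mated minus control arrays, with adjusted p of 0.499 and 0.543 by limma. In SP-infused minus control arrays they belonged to EPHB2, a receptor of B-type ephrins, with 0.35 ± 0.17, and EPHA6 with 0.28 ± 0.20 (both adjusted p = 0.891). EPHB2 lay between 5.78 and 6.86 with a median of 6.28 in SP-infused arrays and between 5.38 and 6.52 with a median of 5.97 in control arrays. Of 8 SP-infused arrays 6 were above the control median. EPHA7 had the widest spread of all members (SD within groups 0.89), from 5.51 to 8.58 in mated, 6.61 to 8.76 in SP-infused and 5.87 to 8.77 in control arrays, and its group means differed by 0.00 between mated and control arrays. The narrowest spread was that of EFNA3 (SD within groups 0.15).

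No slit or robo reached an unadjusted p of 0.05. ROBO3 gave -0.24 ± 0.16 and SLIT1 -0.14 ± 0.11 in mated minus control arrays, with adjusted p of 0.573 and 0.633, and ROBO3 -0.13 ± 0.16 in SP-infused minus control arrays. In SP-infused minus control arrays SLIT2, a secreted ligand of ROBO1 and ROBO2, gave -0.24 ± 0.36 (adjusted p = 0.933), with arrays from 6.88 to 9.19 in SP-infused and from 6.88 to 9.08 in control arrays. The arrays of SLIT2 thus spread over more than 2 units in each of both groups, and its difference between groups was smaller than the SE of that difference.

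The netrin system held the 3 lowest p-values of the 55 genes (NTNG2, NTN1 and DCC) and 4 of its 10 members at an unadjusted p under 0.05 in mated against control arrays, where 11.4% of all probe sets were. NTN1, the secreted netrin-1, lay between 6.48 and 7.33 with a median of 6.95 in mated arrays, between 6.31 and 7.16 with a median of 6.63 in SP-infused arrays, and between 6.36 and 6.91 with a median of 6.53 in control arrays. In mated arrays 5 of 8 values were above every control array, and the highest control array stood alone at 6.91. NTN1 was 0.37 ± 0.12 higher in mated than in control arrays (1.29-fold; limma, adjusted p = 0.346). It was 0.26 ± 0.12 higher in mated than in SP-infused arrays (adjusted p = 0.998; exact permutation test, two-sided p = 0.0751), and 0.11 ± 0.12 higher in SP-infused than in control arrays (adjusted p = 0.904).

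DCC, the receptor through which netrin-1 attracts, was the member with the largest difference between mated and control arrays. It lay between 3.61 and 7.38 with a median of 5.70 in mated arrays, between 5.33 and 7.16 with a median of 6.51 in SP-infused arrays, and between 6.18 and 7.72 with a median of 6.72 in control arrays. In mated arrays 6 of 8 values were below every control array and 2 were above the control median, with an SD of 1.22 against 0.62 in SP-infused and 0.52 in control arrays. The difference was -1.20 ± 0.39 between mated and control arrays (0.437-fold; limma, adjusted p = 0.348), -0.84 ± 0.39 between mated and SP-infused arrays (adjusted p = 0.998), and -0.35 ± 0.39 between SP-infused and control arrays (adjusted p = 0.907). UNC5B, a repulsive netrin receptor also known from vessels, lay between 4.77 and 5.34 with a median of 4.97 in mated arrays, between 4.74 and 5.49 with a median of 5.07 in SP-infused arrays, and between 4.86 and 5.61 with a median of 5.24 in control arrays. Thus 7 of 8 mated arrays were below the control median, with a difference of -0.27 ± 0.12 (adjusted p = 0.413).

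The netrin-G genes encode membrane-anchored relatives that bind neither DCC nor UNC5. NTNG2 (probe set 15199391) lay between 5.53 and 6.15 with a median of 5.93 in mated arrays, between 5.78 and 6.26 with a median of 5.98 in SP-infused arrays, and between 6.05 and 6.49 with a median of 6.17 in control arrays. All 8 mated arrays were below the control median, and 5 mated and 5 SP-infused arrays were below every control array. The difference from control was -0.32 ± 0.09 in mated arrays (limma, adjusted p = 0.326; exact permutation test, two-sided p = 0.00342) and -0.19 ± 0.09 in SP-infused arrays (adjusted p = 0.891). The other probe set of NTNG2 gave -0.34 and -0.44 (limma, unadjusted p = 0.0637 and 0.0196). NTNG1 lay between 5.58 and 6.91 with a median of 6.41 in mated arrays, between 5.52 and 6.58 with a median of 5.79 in SP-infused arrays, and between 5.92 and 6.83 with a median of 6.46 in control arrays. Of the SP-infused arrays 5 of 8 were below every control array and 3 lay inside the control range, and the difference was -0.45 ± 0.20 against control (adjusted p = 0.891) and 0.41 ± 0.20 for mated minus SP-infused arrays (adjusted p = 0.998). NTN3, NTN4, NTN5, UNC5A and UNC5D gave differences from control between -0.21 and 0.13.

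**Figure D2:**
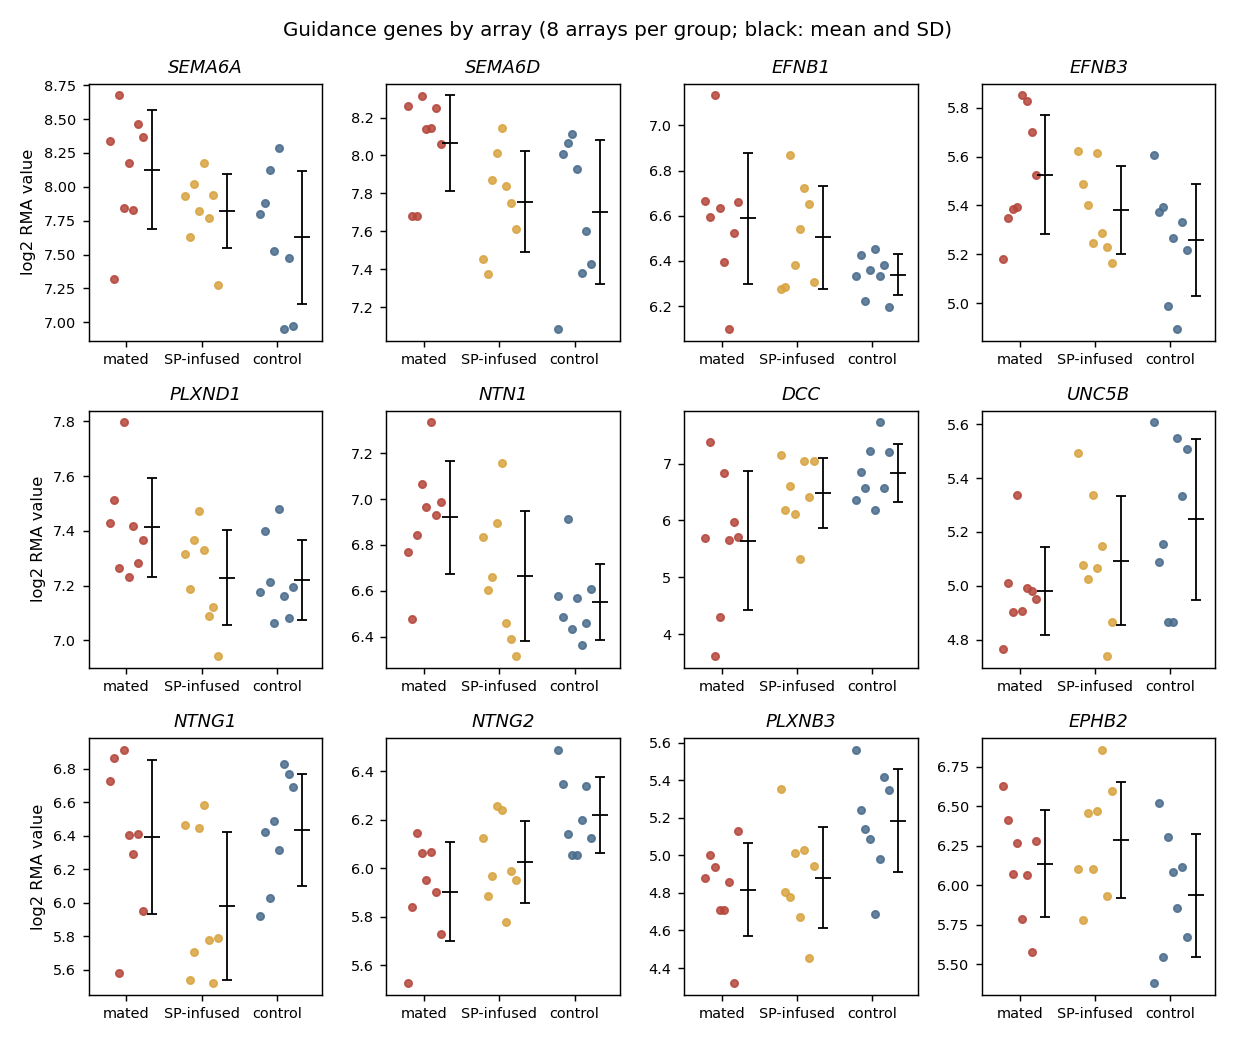
Log2 values of 12 guidance genes on each array, with mated, SP-infused and control arrays from left to right (n = 8 each) and the mean and SD in black. The groups overlap for each gene, and the lowest DCC value (3.61) is that of a mated array.

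Leaving out each array in turn, 5 of the 10 genes (DCC, NTN1, NTNG2, PLXNB3 and SEMA6A) stayed at an unadjusted p under 0.05 in mated against control arrays in every fit. Their differences then ran from -1.44 to -0.91 for DCC, from 0.31 to 0.43 for NTN1, from -0.35 to -0.26 for NTNG2, from -0.44 to -0.29 for PLXNB3 and from 0.40 to 0.61 for SEMA6A. None of the 3 genes of SP-infused against control arrays and none of the 4 of mated against SP-infused arrays did so. Arrays were not tied to sows, so these fits could not leave out a sow.

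Partners of the guidance receptors in the cytoplasm and at the surface were taken as a list of 67 genes, of which 49 were measured. None passed an adjusted p under 0.05. Counted without adjustment, 0 partners were higher and 1 lower in mated than in control arrays, 0 were higher and 3 lower in SP-infused than in control arrays, and 0 differed between mated and SP-infused arrays. Of all probe sets 2.88% were higher and 8.52% lower in mated than in control arrays, and 1.4% were higher and 3.76% lower in SP-infused than in control arrays, and counts this small among 49 genes are not set apart from that background. GPC1, a cell surface proteoglycan that binds slits, averaged 6.57 ± 0.19 in mated arrays, 6.69 ± 0.22 in SP-infused arrays and 6.84 ± 0.21 in controls (SD, n = 8 each), with -0.27 ± 0.11 (SE) between mated and control arrays (limma, adjusted p = 0.365). In SP-infused minus control arrays the values were -0.33 ± 0.10 for CRMP1 and -0.49 ± 0.21 for DPYSL3, both of the family of collapsin response mediators that acts downstream of semaphorins, and -0.40 ± 0.18 for RND1, a small GTPase that binds plexins (adjusted p = 0.891 for each). DPYSL3 averaged 8.17 ± 0.37 in mated arrays, 7.77 ± 0.43 in SP-infused arrays and 8.26 ± 0.51 in controls. CRMP1 averaged 4.39 ± 0.17 in mated arrays, 4.22 ± 0.19 in SP-infused arrays and 4.55 ± 0.19 in controls. Next in mated minus control arrays came DPYSL5, of the same family as DPYSL3, with -0.21 ± 0.11 and FLRT3, a binding partner of UNC5 receptors, with 0.71 ± 0.38. In mated minus SP-infused arrays DPYSL3 gave 0.40 ± 0.21, CRMP1 0.17 ± 0.10 and VAV3, an exchange factor downstream of Eph receptors, 0.41 ± 0.25 (adjusted p = 0.998 for each).

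The spread of many guidance genes within groups ran along with markers of cell types. Each member was set against the mean of 7 marker lists over 24 arrays after subtraction of group means, with p-values from permutations of arrays within groups adjusted over 385 pairs. Of these pairs 63 passed an adjusted p under 0.05, with 39 positive and 24 negative, and they held 33 of the 55 members. Such relations were common on the array. An r of 0.5 or more in size, a level chosen after the correlations had been seen, was found in 19.2% of the pairs of members and 12% of the pairs of all single-symbol genes that were not markers themselves. With at least 1 list it was found in 65.5% of members and 46.4% of those genes. By list the shares were 29.1% and 15.2% for secretory epithelium, 21.8% and 12.8% for ciliated epithelium, and 21.8% and 13.8% for leukocytes. They were 18.2% and 11.2% for neurons and Schwann cells, and 9.09% and 8.04% for fibroblast and stroma. Those for smooth muscle and endothelium are given below. By ranks 45 of the 63 passed as well, and all 63 kept their sign when the 2 arrays farthest from the median of the marker mean were left out. Within each of the 3 groups the sign was the same for 59 of the 63 pairs. Of the 10 genes at an unadjusted p under 0.05 in mated against control arrays, 5 had such a pair (EFNB1, NTNG2, PLXND1, SEMA6A and UNC5B) and 5 had none (DCC, EFNB3, NTN1, PLXNB3 and SEMA6D). The lists are themselves related, with r = -0.63 between smooth muscle and secretory epithelium, -0.59 between smooth muscle and leukocytes, and 0.53 between ciliated epithelium and leukocytes.

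**Figure D3:**
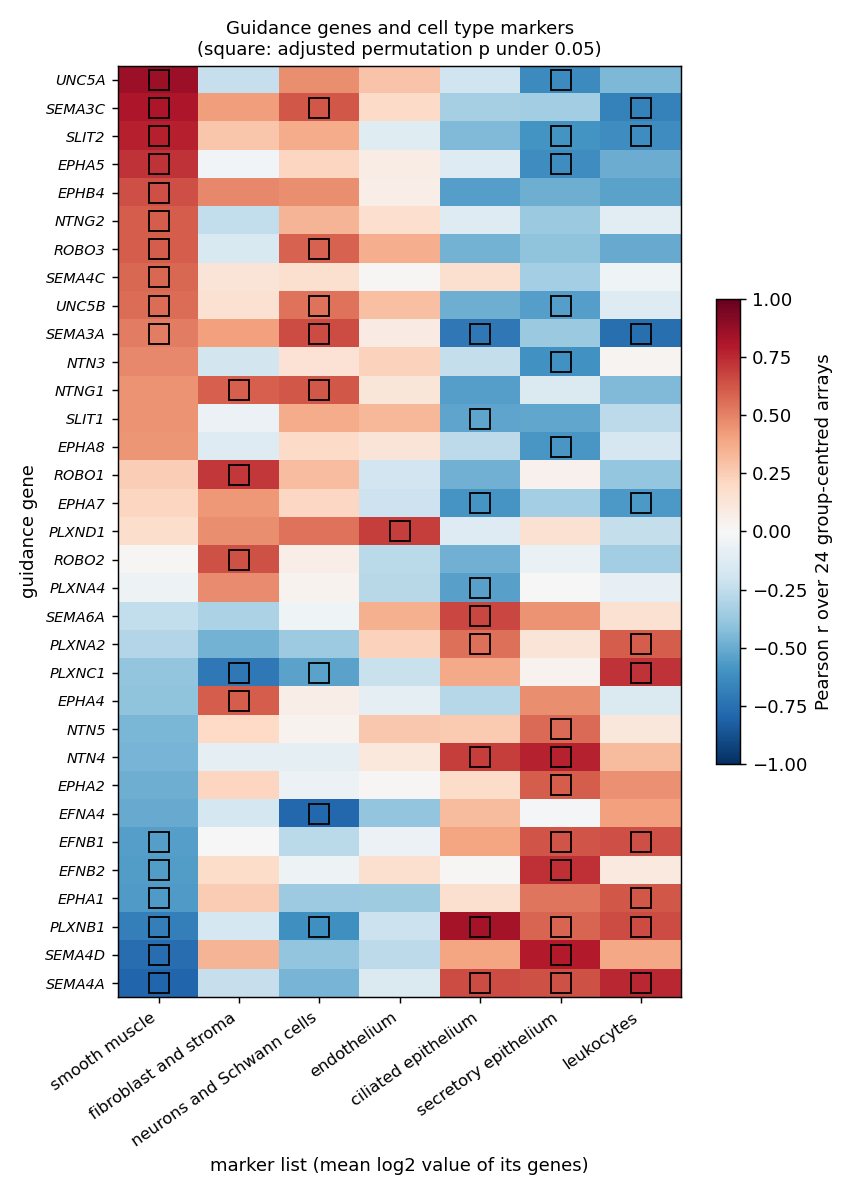
Pearson r between the 33 guidance genes with at least 1 pair past the threshold (rows, ordered by their r with smooth muscle) and the mean log2 value of 7 marker lists (columns) over 24 group-centred arrays. Squares mark the 63 pairs at an adjusted permutation p under 0.05, and genes high in the smooth muscle column (UNC5A, r = 0.85) lie below 0 in the secretory and leukocyte columns.

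With smooth muscle markers 10 members ran in parallel and 6 in opposition. UNC5A, a repulsive netrin receptor, had r = 0.85 (rho = 0.80, permutation adjusted p = 0.0019, and r = 0.82 without 2 arrays), and r was 0.94 within mated, 0.94 within SP-infused and 0.66 within control arrays. Cut at the widest inner gap of the smooth muscle mean (0.134, or 0.106 of its range), 11 arrays were higher and 13 lower. The r of UNC5A was 0.66 and 0.30 within them. A cut of the marker mean narrows its range and by itself tends to lower r. Neither these values nor those at such cuts below can therefore decide where a relation lies. SEMA3C, a secreted semaphorin, had r = 0.81 (rho = 0.84, permutation adjusted p = 0.0034, and r = 0.77 without 2 arrays), with 0.63 and 0.62 on either side of the same gap. SLIT2 (r = 0.78) and the receptors EPHA5 (0.72) and EPHB4 (0.64) also ran with smooth muscle, while SEMA4A (-0.79), SEMA4D (-0.76) and PLXNB1 (-0.69) ran against it. NTNG2 (0.61) and UNC5B (0.56) also ran with the smooth muscle mean. Within the 11 higher and 13 lower arrays r was -0.045 and 0.147 for NTNG2 and 0.291 and 0.086 for UNC5B. The smooth muscle mean ranged from 10.85 to 11.62 in mated, 10.23 to 11.49 in SP-infused and 10.58 to 11.56 in control arrays, and its part in the NTNG2 and UNC5B differences was not tested.

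SEMA4D, a membrane-bound semaphorin known from immune cells, and NTN4, a netrin of basement membranes, ran with the secretory epithelium markers. SEMA4D had r = 0.79 (rho = 0.78, permutation adjusted p = 0.0032, and r = 0.76 without 2 arrays) and NTN4 r = 0.77 (rho = 0.75, permutation adjusted p = 0.0034, and r = 0.72 without 2 arrays). With each marker scaled to an SD of 1, so that OVGP1 weighs no more than the others, r was 0.90 for SEMA4D and 0.64 for NTN4. The same markers ran with EFNB2 (0.73), EFNB1 (0.63) and EPHA2 (0.60) and against UNC5A (-0.64) and EPHA5 (-0.62). The secretory mean ranged from 7.26 to 10.07 in mated, 7.75 to 10.04 in SP-infused and 7.71 to 10.19 in control arrays, and the median difference of its 4 markers between mated and control arrays was -0.27. The part of the secretory mean in the EFNB1 difference was not tested. With ciliated epithelium the highest values were those of PLXNB1, the SEMA4D receptor, with r = 0.83 (rho = 0.72, permutation adjusted p = 0.0019, and r = 0.78 without 2 arrays), and of NTN4 with r = 0.69 (rho = 0.62, permutation adjusted p = 0.0072, and r = 0.65 without 2 arrays). SEMA6A had r = 0.67 with ciliated markers (rho = 0.67, permutation adjusted p = 0.017, and r = 0.56 without 2 arrays), at 0.74 within mated, 0.30 within SP-infused and 0.80 within control arrays. Cut at the widest inner gap of the ciliated mean (0.184 of its range), 7 arrays were higher and 17 lower. Within them r was 0.57 and 0.31 for PLXNB1, -0.08 and 0.26 for NTN4, and 0.83 and 0.40 for SEMA6A. The mean of the ciliated markers ranged from 6.46 to 7.97 in mated, 6.66 to 7.86 in SP-infused and 6.88 to 8.12 in control arrays, and the median difference of the 7 markers between mated and control arrays was -0.18. The part of ciliated cell content in the SEMA6A difference was not tested.

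**Figure D4:**
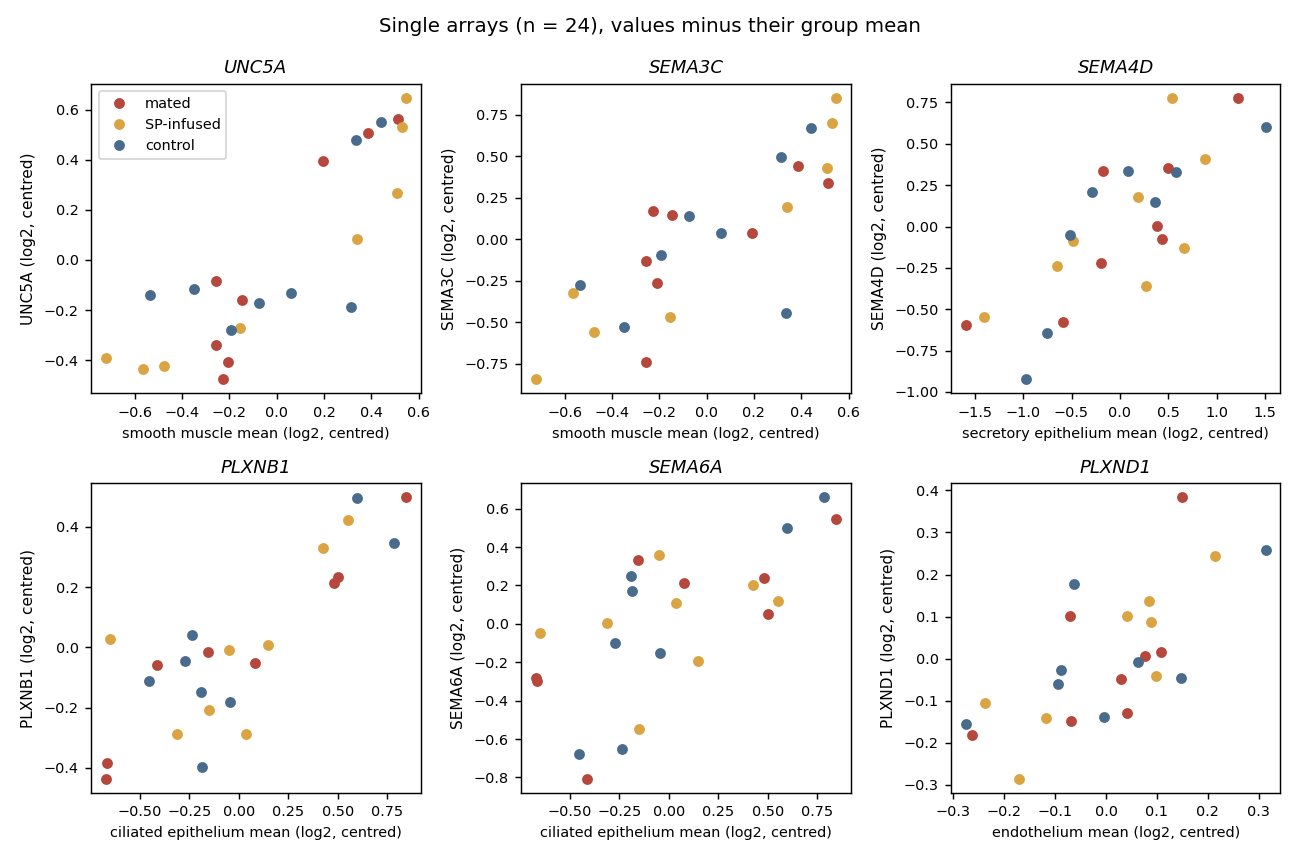
Value of 6 guidance genes on each of 24 arrays against the mean of a marker list, both on the log2 scale after subtraction of the group mean, with arrays labelled mated, SP-infused and control in colour. The values give r = 0.85 for UNC5A and r = 0.67 for SEMA6A.

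PLXND1 was the only member past the threshold with the endothelial markers, at r = 0.69 (rho = 0.73, permutation adjusted p = 0.0079, and r = 0.65 without 2 arrays), and its r was 0.62 within mated, 0.86 within SP-infused and 0.63 within control arrays. An r of 0.5 or more in size with these markers was found in 1.82% of members and 2.79% of all single-symbol genes outside the marker lists. With fibroblast and stromal markers ROBO1 had r = 0.71 (rho = 0.58, permutation adjusted p = 0.012, and r = 0.56 without 2 arrays) and ROBO2 r = 0.64 (rho = 0.57, permutation adjusted p = 0.024, and r = 0.48 without 2 arrays). Within SP-infused arrays r was 0.01 for ROBO1 and -0.11 for ROBO2, and by ranks ROBO2 did not pass (permutation adjusted p = 0.054), nor did it pass without control replicate 1 (permutation adjusted p = 0.072). On the widest gap of the stromal mean 17 arrays were higher and 7 lower, within which r was 0.23 and 0.73 for ROBO1 and 0.52 and 0.73 for ROBO2. PLXNC1 had r = -0.71 with the stromal markers, at 0.09 within the 17 higher and -0.85 within the 7 lower arrays. With markers of neurons and Schwann cells SEMA3A, a repellent of sensory and sympathetic axons, had r = 0.65 (rho = 0.61, permutation adjusted p = 0.020, and r = 0.46 without 2 arrays) and SEMA3C r = 0.62 (rho = 0.63, permutation adjusted p = 0.020, and r = 0.55 without 2 arrays), which no longer passed with each marker scaled to an SD of 1 (permutation adjusted p = 0.053). Of the 7 neural markers 5 had a mean below 5. With leukocyte markers SEMA4A, known from T cell priming in mice, had r = 0.75 (rho = 0.75, permutation adjusted p = 0.0044, and r = 0.61 without 2 arrays) and PLXNC1 r = 0.72 (rho = 0.64, permutation adjusted p = 0.0035, and r = 0.58 without 2 arrays), while SEMA3A (-0.76) and SEMA3C (-0.67) ran the other way.

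Ligands and receptors that are known to bind each other were then compared in 19 pairs, which were drawn up after some of the correlations had been seen. Of these pairs 7 passed a permutation p under 0.05 adjusted over the 19, with 5 positive and 2 negative, and the median r was 0.01. Over all 1485 pairs of members the median r was 0.03 and the 5th to 95th percentiles were -0.57 to 0.60. SEMA4A and PLXNB1 had r = 0.84 (rho = 0.85, permutation adjusted p = 0.00038, and r = 0.80 without 2 arrays), and SEMA4D and PLXNB1 r = 0.65 (rho = 0.63, permutation adjusted p = 0.0096, and r = 0.60 without 2 arrays). All 3 genes also ran with epithelial and against smooth muscle markers. NTN1 and UNC5A had r = 0.60 (rho = 0.63, permutation adjusted p = 0.018, and r = 0.51 without 2 arrays), but r was 0.76 within mated, 0.76 within SP-infused and -0.09 within control arrays.

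SLIT2 had r = 0.57 with ROBO1 (rho = 0.56, permutation adjusted p = 0.018, and r = 0.49 without 2 arrays) and r = 0.50 with ROBO2 (rho = 0.51, permutation adjusted p = 0.041, and r = 0.40 without 2 arrays). EFNA5 and its receptor EPHA7 ran in opposition, with r = -0.75 (rho = -0.77, permutation adjusted p = 0.00076, and r = -0.71 without 2 arrays), at -0.87 within mated, -0.72 within SP-infused and -0.67 within control arrays. SEMA3A and NRP1 had r = -0.52 (rho = -0.26, permutation adjusted p = 0.041), which was -0.07 without 2 arrays and therefore rests on those arrays. SEMA6A had r = 0.48 with PLXNA2 (rho = 0.48, permutation adjusted p = 0.076, and r = 0.48 without 2 arrays) and r = -0.51 with PLXNA4 (rho = -0.45, permutation adjusted p = 0.057, and r = -0.38 without 2 arrays), and NTN1 had r = -0.44 with DCC (rho = -0.41, permutation adjusted p = 0.079, and r = -0.18 without 2 arrays).

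**Figure D5:**
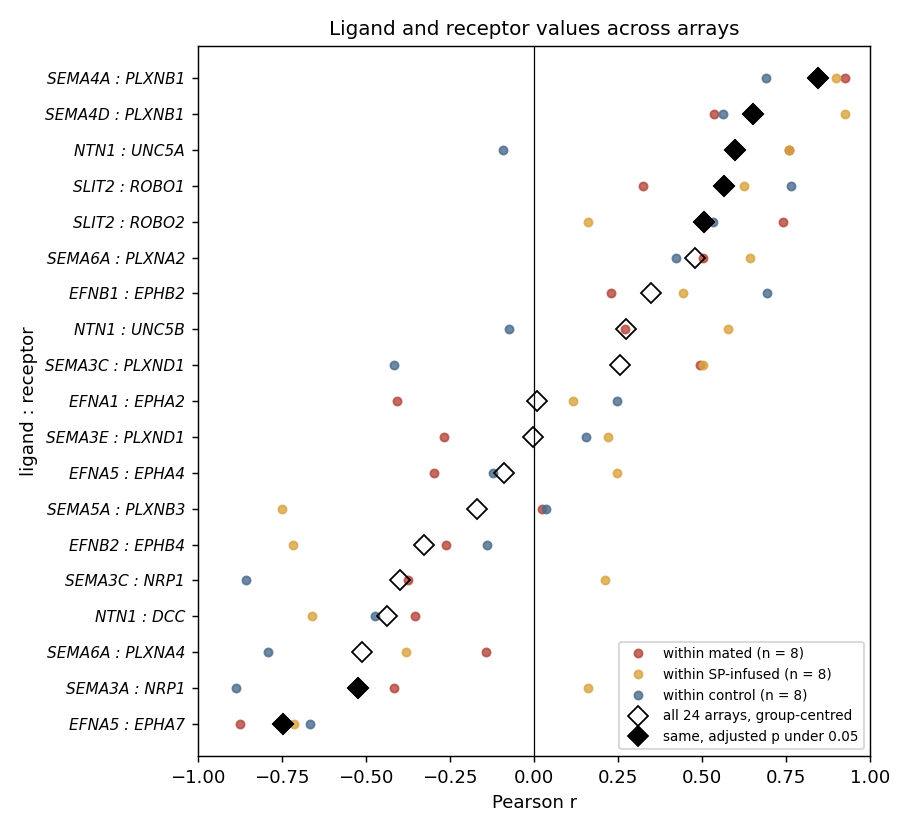
Pearson r of 19 ligand and receptor pairs over 24 group-centred arrays (diamonds, filled at an adjusted permutation p under 0.05) and within mated, SP-infused and control arrays (points, n = 8 each). SEMA4A with PLXNB1 (0.84) and EFNA5 with EPHA7 (-0.75) keep their sign in each group, whereas SEMA3A with NRP1 does not.

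Members that lie close to each other in the pig genome, with fewer than 5 protein-coding genes between them in the RefSeq gene table, formed 11 pairs. Of these 10 were positive with a median r of 0.38, and 2 passed a permutation p under 0.05 adjusted over the 11. Among all 1485 pairs of members 786 were positive, with a median r of 0.03 and a 95th percentile of 0.60. Whether neighbours differ from other pairs was not tested. ROBO1 and ROBO2, next to each other, had r = 0.76 (rho = 0.71, permutation adjusted p = 0.0020, and r = 0.65 without 2 arrays), at 0.77 within mated, 0.14 within SP-infused and 0.89 within control arrays. SEMA3A and SEMA3C, with 4 genes between them, had r = 0.62 (rho = 0.60, permutation adjusted p = 0.0020, and r = 0.51 without 2 arrays). SEMA3A and its direct neighbour SEMA3E had r = 0.14 (rho = 0.02, permutation adjusted p = 0.62, and r = -0.06 without 2 arrays).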

How the data were processed

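The authors processed the arrays with RMA and compared groups with limma, of versions that the labels do not name. Deposited values were log2 intensities per probe set and were used unchanged. Raw probe intensities were not used here. Array distributions were not identical. The study's methods name 4 sows for the 8 arrays of each group, so precision rests on fewer animals than arrays.

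Of 27558 probe sets 13327 had 1 gene symbol (a symbol repeated in 70 probe sets was counted once), 357 several and 13874 none. Of the 55 members 47 were found by gene number and 8 by symbol in the RefSeq table of Sscrofa11.1, used only for names and neighbours. In R 4.3.3 with limma 3.58.1, a mean per group was fitted over 24 arrays with empirical Bayes, with Benjamini-Hochberg adjustment over the whole array. The fit was tested on simulated data with independent arrays, which cannot show how it behaves where arrays share a sow. Correlations used 100000 permutations within groups, in Python 3.11.15 with numpy 2.4.6. Exact tests covered SEMA6A and the member with the lowest p of each comparison, the second kind thus being selected.

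Genes named were SEMA6A, members at an unadjusted p under 0.05, the 2 lowest p-values per family, members with an array far from its group, the 2 highest correlations per marker list and the 3 lowest p-values among partners. Others named beside correlations, and the ligand and receptor pairs, were chosen after their values were seen. Members and lists were chosen with earlier results of these data known. Alternatives were pairwise fits, equal array medians, cyclic loess, leaving out probe sets with a mean below 5, trended robust variance, array weights, the replicate block, the mean of a gene's probe sets and leaving out each array. Scaling each marker to an SD of 1 was added after seeing the data. Same-numbered arrays did not deviate together throughout (24 pairs, r from -0.40 to 0.50), and numbers were not taken as pairs.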

Additional observations from a re-analysis of the deposited data

Results flagged for a closer look

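Of 165 sets of 8 arrays (55 genes in 3 groups) 13 held an array whose gap to the next one was large for the range of its group, where chance gives about 1 in 20. In mated arrays these were EFNB2 in replicate 5, low at 7.826 where the others began at 8.409, and UNC5B in replicate 4, high at 5.339 where the others ended at 5.009. In SP-infused arrays the low values were EFNA2 in replicate 7 (4.239, next 4.775), EFNA4 in replicate 5 (6.085, next 6.640), EFNB2 in replicate 1 (7.828, next 8.489) and UNC5D in replicate 2 (3.574, next 3.993). The high values were NTN5 in replicate 3 (6.141, next 5.541) and SEMA3B in replicate 1 (6.844, next 6.174). In control arrays the high values were EPHA5 in replicate 7 (5.692, next 5.233), NTN1 in replicate 3 (6.912, next 6.609), SEMA3E in replicate 2 (5.948, next 5.544) and UNC5D in replicate 3 (4.663, next 4.177), and SEMA3A was low in replicate 3 (7.098, next 7.818). Control replicate 3 thus held 3 of the 13 values.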

How the results depend on the processing

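No guidance gene reached an adjusted p under 0.05 under any alternative (lowest 0.192, limma), and of 2004 gene values under alternatives 1970 kept their direction while 34 changed sign, in 10 genes with differences near 0. The pairwise fit of 16 arrays left 1 higher and 0 lower members in mated against SP-infused arrays at an unadjusted p under 0.05. Equal array medians gave 1 higher and 1 lower member in SP-infused against control arrays and moved the median for mated minus control to 0.0904. Cyclic loess gave 1 higher member in SP-infused against control arrays, and array weights 0 lower members in mated against SP-infused arrays. NTNG1 in mated minus control arrays turned to 0.0198 with equal medians and 0.00499 with cyclic loess. SLIT1 in SP-infused minus control arrays turned to 0.0469 with cyclic loess and 0.00570 with array weights. With array weights PLXNC1 turned to 0.00979 and SLIT2 to -0.089 in mated minus control arrays, and PLXND1 to -0.00477 and SEMA6D to -0.0236 in SP-infused minus control arrays. The cause was not tested.

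Leaving out 1 array gave 4 to 6 higher and 3 to 4 lower members in mated against control arrays, 0 to 1 higher and 0 to 4 lower in SP-infused against control, and 0 to 4 higher and 0 to 1 lower in mated against SP-infused arrays. The lower count of SP-infused against control arrays was 1 without control replicate 1, 6 or 8 or SP-infused replicate 2, 3, 6 or 8, and 0 without SP-infused replicate 7. The higher count of mated against SP-infused arrays was 0 without mated replicate 4 or 6 or SP-infused replicate 2, 6, 7 or 8, and 1 without mated replicate 1, 5, 7 or 8. Its lower count was 0 without mated replicate 1, 3, 4, 6 or 8 or SP-infused replicate 1, 3, 6 or 8. Medians ran from 0.00737 to 0.0540 for mated minus control, -0.0539 to 0.0150 for SP-infused minus control and 0.0233 to 0.0614 for mated minus SP-infused arrays. Differences that changed sign ran from -0.115 to 0.0756 for NTNG1, -0.284 to 0.0690 for PLXNC1 and -0.0902 to 0.259 for SLIT2 in mated minus control arrays. In SP-infused minus control arrays they ran from -0.0281 to 0.0476 for PLXND1, -0.0324 to 0.115 for SEMA6D, -0.0955 to 0.0384 for SLIT1 and -0.205 to 0.00411 for ROBO3, and in mated minus SP-infused arrays from -0.124 to 0.00803 for PLXNB3, -0.00265 to 0.184 for EPHA6 and -0.00147 to 0.0642 for SEMA4F. With the replicate block 5 members were higher and 3 lower in mated against control, 0 and 2 in SP-infused against control, and 2 and 1 in mated against SP-infused arrays, and 4 of 24 arrays correlated best with their own number. Marker correlations past the threshold numbered 63 with equal medians, 67 without control replicate 1 and 53 with scaled markers. Of the 63 pairs themselves 4, 6 and 14 no longer passed in these settings.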

Other observations

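Members were also set against 3 genes whose expression changes along the female tract in mammals, HOXA10, HOXA11 and WNT7A, chosen after their values had been seen. Over 24 group-centred arrays 34 of 165 pairs passed a permutation p under 0.05 adjusted over the 165, of which 19 were positive. The share of all genes on the array with such relations to these 3 genes was not computed. Whether this count and those per gene below are particular to the guidance genes is therefore not known. With HOXA10 the highest r were those of ROBO2 (r = 0.82, rho = 0.64, permutation adjusted p = 0.0022, and r = 0.65 without 2 arrays) and EPHA7 (r = 0.78, rho = 0.73, permutation adjusted p = 0.00165, and r = 0.62 without 2 arrays). PLXNC1 had r = -0.79 (rho = -0.62, permutation adjusted p = 0.00309, and r = -0.59 without 2 arrays) and PLXNA2 r = -0.78 (rho = -0.74, permutation adjusted p = 0.0022, and r = -0.61 without 2 arrays). With WNT7A the signs of these 4 genes were the opposite, with PLXNC1 at r = 0.85 (rho = 0.67, permutation adjusted p = 0.00165, and r = 0.74 without 2 arrays), PLXNA2 at r = 0.78 (rho = 0.68, permutation adjusted p = 0.00306, and r = 0.63 without 2 arrays) and EPHA7 at r = -0.68 (rho = -0.62, permutation adjusted p = 0.00961, and r = -0.58 without 2 arrays). SEMA3A had r = -0.83 with WNT7A (rho = -0.74, permutation adjusted p = 0.00165, and r = -0.67 without 2 arrays), and its sign was negative within each of the 3 groups. ROBO2 had r = -0.57 with WNT7A (rho = -0.37, permutation adjusted p = 0.0425, and r = -0.33 without 2 arrays), at 0.07 within SP-infused arrays. With HOXA11 only 6 of 55 pairs passed, against 12 with HOXA10 and 16 with WNT7A, and the pattern was not the same. The highest r with HOXA11 was that of DCC (r = 0.62, rho = 0.58, permutation adjusted p = 0.0218, and r = 0.45 without 2 arrays). NTN1 had r = -0.61 with HOXA11 (rho = -0.52, permutation adjusted p = 0.0283, and r = -0.35 without 2 arrays). The part of these relations in the DCC and NTN1 differences between mated and control arrays was not tested. ROBO2 had r = 0.61 with HOXA11 (rho = 0.64, permutation adjusted p = 0.00719, and r = 0.54 without 2 arrays) and EPHA7 r = 0.57 (rho = 0.57, permutation adjusted p = 0.0247, and r = 0.47 without 2 arrays), while PLXNC1 had r = 0.02 (rho = 0.06, permutation adjusted p = 0.965, and r = -0.04 without 2 arrays) and PLXNA2 r = -0.37 (rho = -0.47, permutation adjusted p = 0.171, and r = -0.44 without 2 arrays). The labels do not say from where in the junction the tissue of an array came.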
